A study of Mus musculus with 24 samples.

Results

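The interleukin-7 and common-gamma receptor pathway is described through 10 genes: Il7r, Il2rb, Il2rg, Il4ra, Jak1, Jak3, Stat5a, Stat5b, Socs1 and Cish. They were taken by symbol from a list of the pathway. They are 10 of the 21878 genes in the count table, and all 10 were among the 13121 genes with enough counts to be tested. Poly(A) RNA was sequenced from single-cell suspensions of 21 thymic lymphomas and of 3 normal thymuses of female B6C3F1 mice. The labels record for every sample 4 whole-body exposures to carbon ions, each of 1.6 Gy, given weekly from an age of 4 to 5 weeks. That treatment label also stands on the thymus samples, whose titles carry the unexplained mark 7W. In 2 filtered tables the authors placed 11 lymphomas in a set with a mutation of Ikzf1, the gene for the lymphoid transcription factor Ikaros, and 10 in a set without one. The sets are taken from those column names, and how the mutations were called was not given in the sources used here. Since no label ties a lymphoma or thymus to a separate animal, p-values describe the spread among these samples, which may be technical. All samples carry 1 batch date.

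Cytokines of this family bind pairs or triplets of receptor chains that share the common gamma chain, the product of Il2rg. The kinases Jak1 and Jak3 sit on the receptor tails and phosphorylate Stat5a and Stat5b, or Stat6 after interleukin-4, which then enter the nucleus and bind DNA. STAT5 switches on survival and proliferation genes and also Cish and Socs1, whose proteins turn the signal off again. In the thymus, interleukin-7 carries early double-negative thymocytes, the stage before CD4 and CD8 appear. Its receptor chain is low at the double-positive stage, which makes up most of the normal organ, and returns on mature thymocytes.

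The lymphoma libraries held 15 to 36.6 M counts and the thymus libraries 24.5 to 27.5 M. Levels are CPM, counts scaled to a common library total, with the TMM factor that corrects for differences in library composition. T-lineage markers were present in every lymphoma, with a summed level of 3390 to 5800 CPM against 7050 to 8630 in thymus. Markers of double-positive thymocytes summed to 482 to 5830 CPM in the lymphomas and 8600 to 10100 in thymus, and 7 of 8 fell by the test. Of 13 tested macrophage markers 11 rose (summed 310 to 1270 against 150 to 223 CPM for all 14), and 7 of 8 fibroblast markers rose (31.7 to 1030 against 6.56 to 8.66 CPM). The 8 B cell markers summed to 3.67 to 246 CPM in the lymphomas and 48.1 to 81 in thymus. Each of these lists had counts for all of its markers. The part of such shifts in the members' values was not tested. In these bulk samples, fewer cells of a type and less RNA per cell cannot be told apart.

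Against thymus, 4 of the 10 members fell in the lymphomas and 0 rose in edgeR, at an adjusted p under 0.05. The 4 were Il4ra, Socs1, Il2rg and Stat5b. At an unadjusted p under 0.05 the counts were 5 lower and 0 higher, and DESeq2 called 4 lower and 1 higher. Over all genes tested, 15.4% were lower and 15.4% higher. The median log2 fold change was -0.75 over the members and 0.07 over all genes. Every lymphoma lay below every thymus library for 4 members, Il4ra, Stat5b, Socs1 and Cish, which was the case for 7.93% of all genes, while the reverse held for 6.33% of genes and no member. Calls over all genes were evenly split with counts, 50% being higher, but 35.6% were higher when the deposited TPM values were tested with limma on log2(TPM + 1). On that scale the median of all genes moved from 0.07 to -0.06, and 5 members fell, Cish being the addition.

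**Figure D1:**
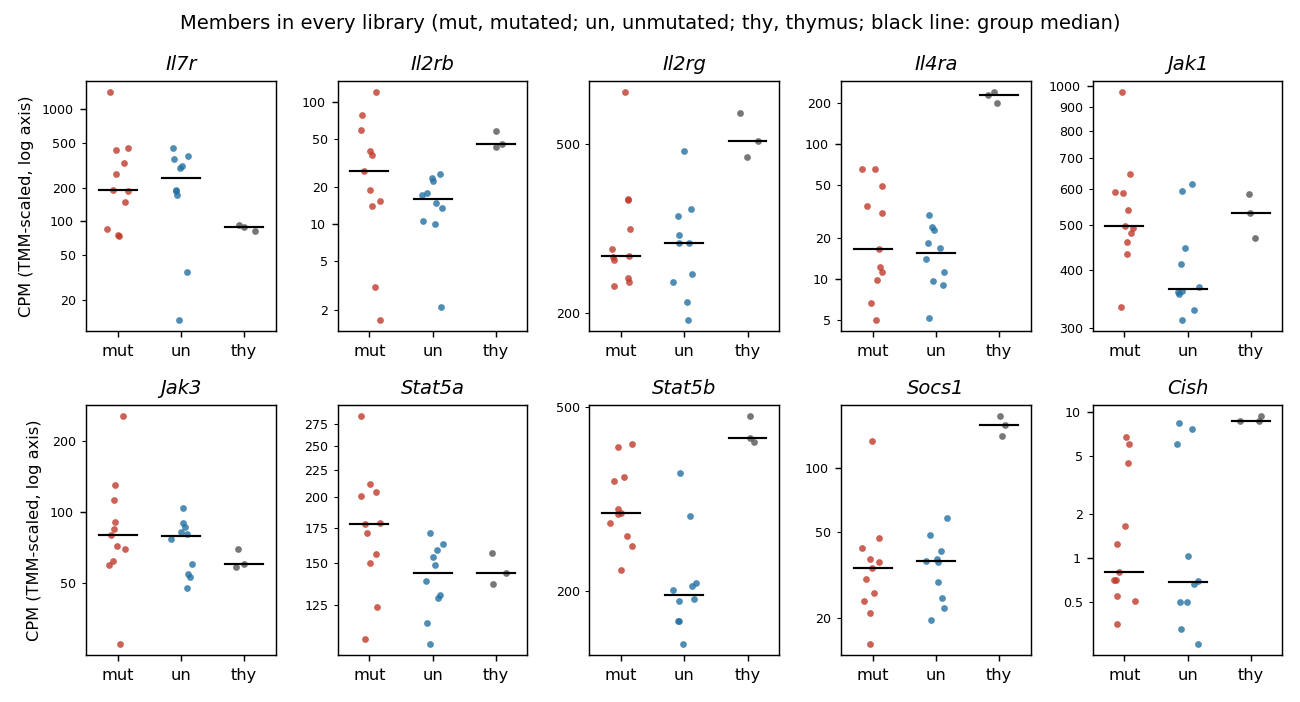
Level of each of the 10 genes in every library, as TMM-scaled CPM on a log axis that differs between panels; mut, mutated set (11 libraries), un, unmutated set (10), thy, thymus (3), and the black line is the group median. Il4ra, Stat5b, Socs1 and Cish lie below thymus in 21 of 21 lymphomas, and Il7r ranges from 13.3 to 1410 CPM.

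Il7r encodes the interleukin-7 receptor alpha chain, which lymphoid progenitors need for survival. Its level in the 3 thymus libraries was 93.9, 88.7 and 82.4 CPM. In the mutated set the lowest was 74.6, the median 191 and the highest 1410 CPM. In the unmutated set these were 13.3, 245 and 453 CPM. The groups overlapped: 16 of 21 lymphomas lay above the thymus range, 1 within it and 4 below. Lymphoma 7 stood above the next highest, at 453 CPM, and lymphomas 31 and 35, at 13.3 and 35.8 CPM, stood lowest. The log2 fold change of all lymphomas against thymus was 1.71 (SE 0.85) with an adjusted p of 0.131 in edgeR. DESeq2 gave 1.72 with an adjusted p of 0.0381, so the call rests on the tool. Without lymphoma 7 the edgeR estimate was at its lowest, 1.4.

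The stretch before the Il7r start is shown because it was the only promoter entry of the members to hold the STAT5-type motif TTCNNNGAA. RefSeq promoters (GRCm38.p6) matched 9 of 10 members, all but Il2rb. Some of the searched stretches of 250 bases lie in annotated exons, in full for Cish (250 bases) and in part for others, such as Il4ra (151 bases). Sequence outside these entries was not searched. The capitals mark the match, which begins 142 bases before the start, within the 150 bases shown (chr15:9529877-9530026, minus strand, in an intron of a longer annotated Il7r transcript).
Il7r: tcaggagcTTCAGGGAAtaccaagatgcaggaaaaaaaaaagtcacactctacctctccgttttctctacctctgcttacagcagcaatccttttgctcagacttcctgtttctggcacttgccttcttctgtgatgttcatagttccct
The motif reads the same on both strands and was searched in the 250 bases before each start. It was found in 7.02% of 32851 promoters. The same letters with 4 bases between TTC and GAA, the spacing that STAT6 prefers, were found in 5.85% of them and in 0 of the 9 members. A match of letters is a description of the sequence only.

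Il2rb encodes the beta chain for interleukins 2 and 15. Thymus held 42.8, 57.6 and 45.4 CPM. The mutated set ran from 1.66 through a median of 27.4 to 119 CPM, and the unmutated set from 2.1 through 16.1 to 25.7 CPM. All 10 unmutated lymphomas lay below the thymus range, while 3 mutated ones (lymphomas 16, 10 and 14) lay above it. The fold change of all lymphomas was -0.84 on the log2 scale (SE 0.73, adjusted p 0.4 in edgeR), which did not pass.

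Il7r and Il2rb both lie on chromosome 15, whose expression was raised in some of the lymphomas. The median log2 ratio to thymus over 368 other chromosome 15 genes was 0.43 to 0.62 in 8 lymphomas, 7 of them unmutated, and -0.1 to 0.21 in the other 13. In the 8, Il7r ran from 35.8 through 335 to 453 CPM and Il2rb from 1.66 through 14.3 to 25.7 CPM. In the 13, Il7r ran from 13.3 through 185 to 1410 CPM and Il2rb from 2.1 through 23.7 to 119 CPM. Both genes thus overlapped widely between these libraries. The split was chosen after the medians were seen, and the part of chromosome 15 in these levels was not tested.

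Il2rg encodes the common gamma chain itself. Thymus held 508, 591 and 466 CPM. The mutated set ran from 232 through 272 to 659 CPM and the unmutated set from 193 through 293 to 481 CPM. The level fell 1.69-fold over all lymphomas, a log2 fold change of -0.76 (SE 0.23, adjusted p 0.015 in edgeR). Of the 21 lymphomas 19 lay below the thymus range, lymphoma 18 lay within it, and lymphoma 7 lay above it. The call was lost without thymus 1 (adjusted p 0.0611) and without thymus 2 (0.112).

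Il4ra encodes the chain that joins the common gamma chain in the interleukin-4 receptor. It fell most among the members, 10-fold. Thymus held 231, 240 and 202 CPM, the mutated set ran from 5.01 through 16.6 to 65.4 CPM, and the unmutated set from 5.14 through 15.6 to 30 CPM. The highest lymphoma lay far below the lowest thymus library, so the groups did not overlap. The log2 fold change was -3.33 (SE 0.48, adjusted p 2.44e-05 in edgeR), and it held its call in each of the 24 fits that left out 1 library.

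Il4ra lies on chromosome 7 (125552120 to 125579474, plus strand, GRCm38), next to Il21r (125603429 to 125633570, plus strand), the receptor chain for interleukin-21. Il21r also fell, from 249 ± 29.2 (SD, n = 3) to 54.6 ± 26.4 CPM (SD, n = 21), with a log2 fold change of -2.19 (SE 0.4, adjusted p 0.00029 in edgeR). All 21 lymphomas lay below thymus for it. Among further neighbours, picked after values were seen, Nsmce1 fell by 1.15 on the log2 scale (adjusted p 0.00196 in edgeR). Kdm8 (-0.02) and Gtf3c1 (0.16) did not pass.

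**Figure D2:**
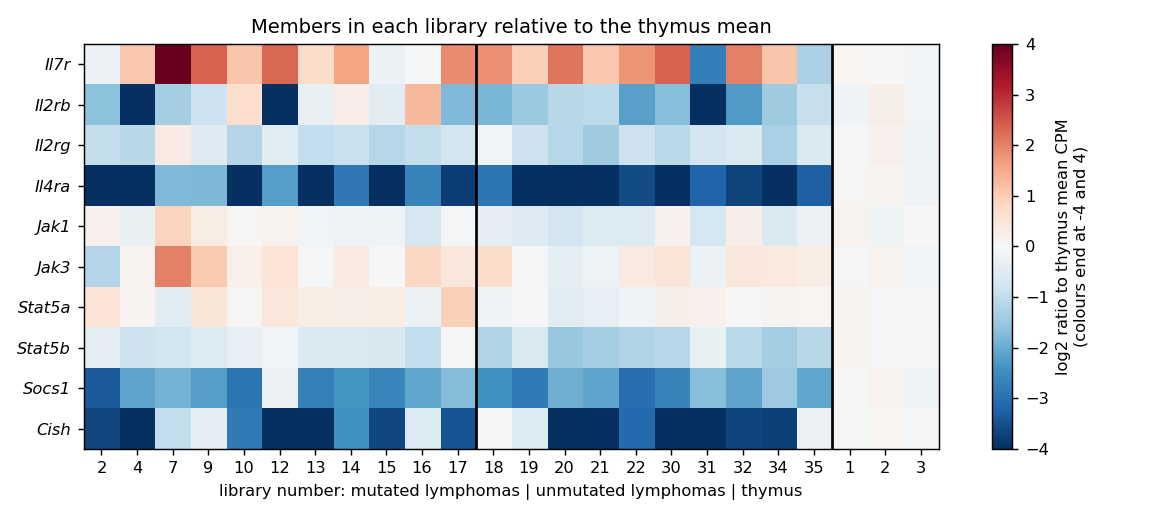
Log2 ratio of each member (rows) to its thymus mean in each library (columns, numbered as in the labels), with black lines between mutated lymphomas, unmutated lymphomas and thymus; colours end at -4 and 4. Il4ra and Socs1 are blue in nearly all lymphomas, Cish is near white in a few, and Il7r is red in most.

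Jak1 and Jak3 encode the kinases that bind the partner chains and the common gamma chain. Jak1 was at 585, 468 and 532 CPM in thymus. It ran from 333 through 499 to 969 CPM in the mutated set and from 312 through 364 to 615 CPM in the unmutated set. Its groups overlapped, and the log2 fold change of -0.12 (SE 0.24) had an adjusted p of 0.725 in edgeR. Jak3 was at 60, 69.5 and 58.5 CPM in thymus, and ran from 27.8 through 79.7 to 254 and from 47.7 through 78.9 to 104 CPM in the mutated and unmutated sets. Of 21 lymphomas 13 lay above the thymus range of Jak3 and 4 below. Its log2 fold change of 0.43 (SE 0.38) did not pass (adjusted p 0.401 in edgeR). Each kinase gene shares bases with another counted gene, Jak1 with Raver2 on the other strand and Jak3 with Insl3 on the same one, so reads of the overlap are uncertain.

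Stat5a and Stat5b, neighbours on chromosome 11, encode closely related transcription factors. Of the 50-base words of their transcripts, 8.21% of Stat5a's and 11% of Stat5b's also occur in the other gene, so part of their counts could be split between them. Stat5a also overlaps Stat3 on the other strand. The difference between the pair was not tested. Stat5b was at 477, 419 and 427 CPM in thymus, from 222 through 294 to 415 CPM in the mutated set, and from 154 through 197 to 359 CPM in the unmutated set. The highest lymphoma lay just under the lowest thymus library. Stat5b fell 1.66-fold, by 0.73 on the log2 scale (SE 0.23, adjusted p 0.0178 in edgeR). Its call was lost without thymus 1, 2 or 3 (adjusted p 0.107, 0.0673 and 0.0649). Stat5a was at 157, 137 and 144 CPM in thymus, from 108 through 178 to 284 CPM in the mutated set, and from 106 through 144 to 171 CPM in the unmutated set. The groups overlapped for Stat5a, and its log2 fold change of 0.14 (SE 0.2) had an adjusted p of 0.622 in edgeR.

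Socs1 encodes a protein that binds and blocks Janus kinases and is induced by STATs and interferon. It fell 4.13-fold in the lymphomas. Thymus held 159, 174 and 140 CPM, the mutated set ran from 15.2 through 34 to 133 CPM, and the unmutated set from 19.5 through 36.7 to 58.1 CPM. Lymphoma 12, at 133 CPM, came close to thymus, and the next highest lymphoma was at 58.1 CPM. The log2 fold change was -2.05 (SE 0.34, adjusted p 0.000134 in edgeR), and it kept its call in each fit that left out 1 library.

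The promoter of Socs1 is shown because it alone among the 9 members held GAAA followed 2 bases later by a second GAAA, letters bound by interferon-response factors, which were searched on both strands after values were seen. The capitals mark 2 overlapping matches, which begin 83 and 77 bases before the start (150 bases, chr16:10785537-10785686, minus strand, GRCm38.p6). The stretch holds no annotated exon of the members, and exons of most other genes were not checked.
Socs1: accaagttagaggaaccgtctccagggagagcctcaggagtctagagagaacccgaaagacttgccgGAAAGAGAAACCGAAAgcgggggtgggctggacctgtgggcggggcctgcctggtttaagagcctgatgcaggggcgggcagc
The motif was found in 2.98% of all promoters of 250 bases. The Socs1 promoter held neither STAT spacing.

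Cish encodes an SH2-domain protein that docks on phosphorylated cytokine receptors, and its gene is a direct STAT5 target. It was the lowest member. Thymus held 8.68, 9.36 and 8.66 CPM, the mutated set ran from 0.359 through 0.804 to 6.79 CPM, and the unmutated set from 0.262 through 0.685 to 8.45 CPM. The lymphomas lay in separate bands. In 15 of them Cish lay at 0.262 to 1.66 CPM, on 5 to 47 counts each, and in 6 (lymphomas 7, 19, 16, 9, 35 and 18) at 4.45 to 8.45 CPM. Both bands held lymphomas of both sets, 3 of each set in the upper one. Although all 21 lay below thymus, the log2 fold change of -1.9 (SE 0.82) had an adjusted p of 0.0792 in edgeR. On log2(TPM + 1) with limma the change was -1.71 with an adjusted p of 0.00747. Without lymphoma 18 the edgeR value was -2.09 with an adjusted p of 0.0454. The 6 lymphomas with the most Cish also had the 6 highest sums of the 7 dendritic cell markers, 33.2 to 55.9 CPM, the next being 25.4 CPM and thymus 18.9 to 27.2. This list was picked from the marker lists after values were seen, and in edgeR 1 of its 7 markers fell against thymus and 0 rose. The B cell sums were highest in lymphomas 35, 16 and 18 of the same 6 (246, 213 and 133 CPM). Lymphomas 7 and 19 had 41.7 and 38.9 CPM, below lymphoma 32 outside the 6 at 44.3, and lymphoma 9 had 27.4. The part of dendritic cells and of B cells in the Cish level was not tested.

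The sets of lymphomas were compared with the same 3 thymus libraries, so the results of those comparisons are not independent of each other. In the mutated set 3 members fell (Il4ra, Socs1 and Il2rg) and 0 rose in edgeR (unadjusted, 5 lower and 1 higher; DESeq2, 3 lower and 1 higher), where 12.9% of all genes were lower and 13.1% higher. In the unmutated set 4 fell (the same 3 and Stat5b) and 0 rose (unadjusted, 5 lower and 0 higher; DESeq2, 4 lower and 0 higher), where 17.3% of genes were lower and 18% higher. The median log2 fold change of the members was -0.44 in the mutated and -0.93 in the unmutated set, against 0.05 and 0.06 for all genes. On log2(TPM + 1), 39.1% of all calls in the mutated set and 32.5% in the unmutated set were higher, against 50.2% and 51% with counts. The medians of all genes there were -0.03 and -0.1.

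Il4ra fell by 3.01 (SE 0.54, adjusted p 0.000414) in the mutated set and by 3.78 (SE 0.55, adjusted p 3.56e-05) in the unmutated set, on edgeR's log2 scale. Socs1 fell by 1.96 (SE 0.39, adjusted p 0.000985) and by 2.15 (SE 0.39, adjusted p 0.0003). Il2rg fell by 0.71 (SE 0.25, adjusted p 0.0397) and by 0.82 (SE 0.25, adjusted p 0.0144). The Il2rg call was fragile in the mutated set: it was lost in 11 of the fits that left out 1 library (adjusted p up to 0.188). In the unmutated set it was lost without thymus 1 or 2, with adjusted p up to 0.086. Without the lymphomas with a raised chromosome 15 it was lost in both sets (adjusted p 0.0523 in the mutated and 0.0526 in the unmutated set), and with no filter on low counts it was lost in the mutated set (0.0578). Stat5b fell by 1.04 in the unmutated set (SE 0.19, adjusted p 0.000364), and its value in the mutated set was -0.5 (SE 0.2, adjusted p 0.0625). Without lymphoma 12, 17 or 31 the mutated value passed, at an adjusted p as low as 0.0293, and it passed without the raised lymphomas (0.0394). Cish differed from thymus by -2.03 (SE 0.92, adjusted p 0.103) and -1.76 (SE 0.94, adjusted p 0.15), and Il7r by 1.91 (SE 0.89, adjusted p 0.115) and 1.44 (SE 0.87, adjusted p 0.2). DESeq2 called Il7r in the mutated set alone (adjusted p 0.0444). Whether these differences between the sets exceed their spread is answered by the direct comparison.

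**Figure D3:**
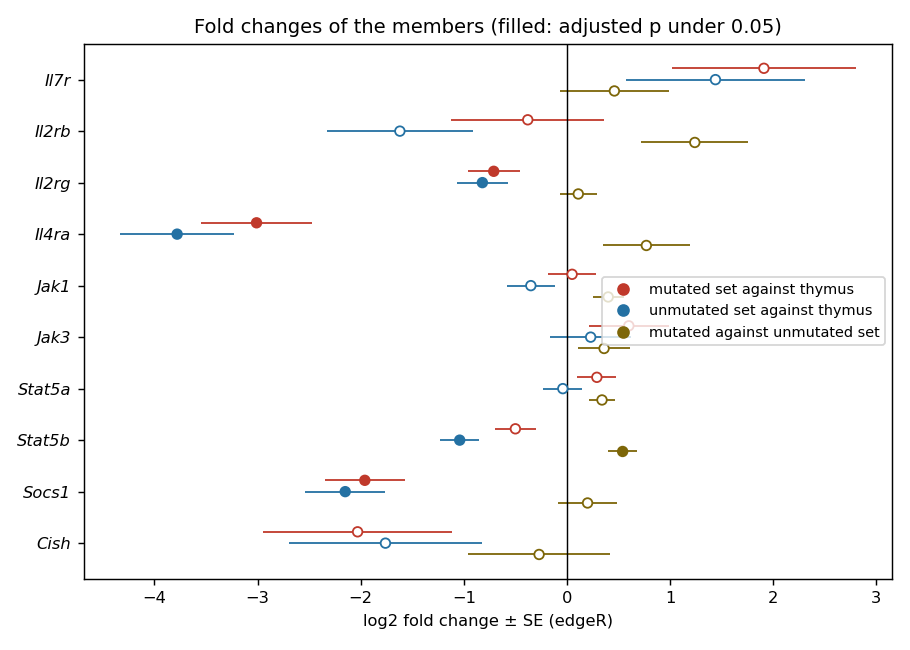
Log2 fold change of each member with its standard error (edgeR) for the mutated set against thymus, the unmutated set against thymus and the mutated against the unmutated set; filled points have an adjusted p under 0.05. Stat5b is the only filled point between the sets, at 0.54.

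Between the sets, Stat5b alone passed, higher in the mutated set. Among all genes, 2.43% were higher and 2.95% lower in the mutated set, and 1 gene of 10 is too few to set against that background. Stat5b averaged 311 ± 62.6 CPM (SD, n = 11) in the mutated and 214 ± 62.5 CPM (SD, n = 10) in the unmutated set. The log2 difference was 0.54 (SE 0.14, adjusted p 0.0272 in edgeR). All 11 mutated lymphomas lay above the unmutated median, but the sets overlapped, since lymphomas 31 and 19 of the unmutated set reached 359 and 290 CPM. Without lymphoma 34 the adjusted p was 0.0571.

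The sets also differ in chromosome 15: its median was raised in 7 of 10 unmutated lymphomas and in 1 of 11 mutated ones. Stat5b ran from 154 through 192 to 208 CPM in those 7 and was at 172, 290 and 359 CPM in the 3 other unmutated lymphomas. In the raised mutated lymphoma, number 12, it was at 409 CPM. When the 8 raised lymphomas were left out, an alternative chosen after seeing the data, Stat5b differed between 10 mutated and 3 unmutated lymphomas by 0.15 with an adjusted p of 0.897. In that fit 1 gene passed over the whole table against 706 with all lymphomas, and 865 had an unadjusted p under 0.05. Against thymus the same restriction left 4 members lower, with Stat5b at -0.56 (adjusted p 0.0219).

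The other members showed no difference between the sets past the threshold. The largest estimate was Il2rb, at 1.24 (SE 0.52, adjusted p 0.152), with 37.4 ± 35.4 CPM (SD, n = 11) against 15.9 ± 7.18 CPM (SD, n = 10). Il4ra followed at 0.77 (SE 0.42, adjusted p 0.268), and Jak1 and Stat5a stood at 0.4 (SE 0.15, adjusted p 0.116) and 0.34 (SE 0.13, adjusted p 0.118). Il7r, at 0.46 (SE 0.53, adjusted p 0.633), turned to -0.1 without lymphoma 7. The remaining 4 members lay between -0.27 (Cish) and 0.36 (Jak3), all adjusted p values being from edgeR. On log2(TPM + 1), 76.5% of all calls between the sets were higher in the mutated set, against 45.2% with counts, and the median of all genes moved from 0 to 0.08. Stat5b was called there too.

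The order of the members was read from the deposited TPM values, which are per transcript length. In thymus the mean levels were Il2rg 824, Socs1 309, Jak1 251, Stat5b 144, Il4ra 113, Stat5a 83.8, Il7r 71.1, Jak3 40.3, Il2rb 27.8 and Cish 5.45 TPM. Each gene exceeded the next in 3 of 3 thymus libraries. In the lymphomas the order was Il2rg 462, Il7r 223, Jak1 219, Stat5a 88.1, Stat5b 83, Socs1 71.6, Jak3 51.9, Il2rb 14.7, Il4ra 10.8 and Cish 1.35 TPM. Il7r thus stood in second place by its mean, yet it exceeded Jak1 in only 8 of 21 lymphomas. Stat5a exceeded Stat5b in 15, Stat5b exceeded Socs1 in 14, Socs1 exceeded Jak3 in 15 and Il2rb exceeded Il4ra in 12, so these neighbours were not separated by their spread.

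The members varied among lymphomas to very different degrees. The coefficient of variation of the CPM was 119% for Cish, 102% for Il2rb, 101% for Il7r and 80.5% for Il4ra. It was 25.5% for Stat5a, 29.7% for Stat5b, 31.4% for Jak1 and 33.7% for Il2rg. Among the 3 thymus libraries no member exceeded 16.3%. The highest lymphoma held 106 times the Il7r of the lowest, and 2.67 times the Stat5a.

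Lymphoma 7, of the mutated set, was the highest of the 21 for 5 of the 10 members. It held 1410 CPM of Il7r (next 453), 659 of Il2rg (next 481), 969 of Jak1 (next 646), 254 of Jak3 (next 130) and 65.4 of Il4ra (next 65). For Stat5a it was near the bottom, at 108 CPM, and for Stat5b it was at 263 CPM. Its Socs1, 42.1 CPM, lay among the other lymphomas. Lymphoma 17 was highest for both STAT5 genes (284 and 415 CPM), and lymphoma 20 was lowest for both (106 and 154 CPM) and for Jak1 (312 CPM).

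Some members varied together over the 21 lymphomas. Of 45 pairs, on log2(CPM + 1), Il2rg and Il4ra had the highest correlation: Pearson's r was 0.79 (permutation test, adjusted p 0.00135). Spearman's rho was 0.84 (permutation test, adjusted p 0.00045, with 1e-05 before adjustment, the smallest the permutations can give). With the 2 lymphomas most distant from the Il2rg median left out, r was 0.78. The relation was of similar size within the sets, with r 0.78 in the mutated and 0.84 in the unmutated set (permutation tests, adjusted p 0.0135 and 0.109). The rho was 0.92 and 0.89 (permutation tests, adjusted p 0.0081 and 0.0508), so the relation passed in the mutated set only. Thymus, high for both genes, took no part in it.

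Stat5a and Stat5b had an r of 0.7 (permutation test, adjusted p 0.00742) and a rho of 0.69 (0.0178), with an r of 0.57 without the 2 farthest lymphomas. Within the sets r was 0.75 and 0.51, with adjusted permutation p of 0.0552 and 0.734, so that the relation did not pass within either set. The 2 genes share sequence and could share misplaced reads. Jak3 had an r of 0.68 with Il2rg (adjusted permutation p 0.0222; rho 0.58, 0.0661), of 0.62 with Il4ra (0.0264; rho 0.57, 0.0661) and of 0.58 with Il7r (0.0545; rho 0.63, 0.0454). Each of these r values dropped to 0.38 when 2 libraries were removed, chosen by distance from the median level of the gene paired with Jak3. The removed libraries can differ between these pairs, and removing extremes narrows the range, which can lower r by itself. How far these relations rest on a few libraries was therefore not tested. No r is given for Cish, whose lymphomas lie in separate bands. Within the mutated set Jak3 and Il4ra had a rho of 0.85 (adjusted permutation p 0.0418) and an r of 0.72 (0.0552). Il7r and Il2rg had an r of 0.37 (rho 0.35) over the 21 lymphomas, with adjusted permutation p of 0.296 and 0.321. Within the mutated set their r was 0.87 (adjusted permutation p 0.0135) and their rho 0.77 (0.0745), and r was 0.69 without the 2 lymphomas most distant from the Il7r median. In the unmutated set r and rho were -0.14 (adjusted permutation p 0.93 and 0.913). The difference between the sets in this correlation was not tested.

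**Figure D4:**
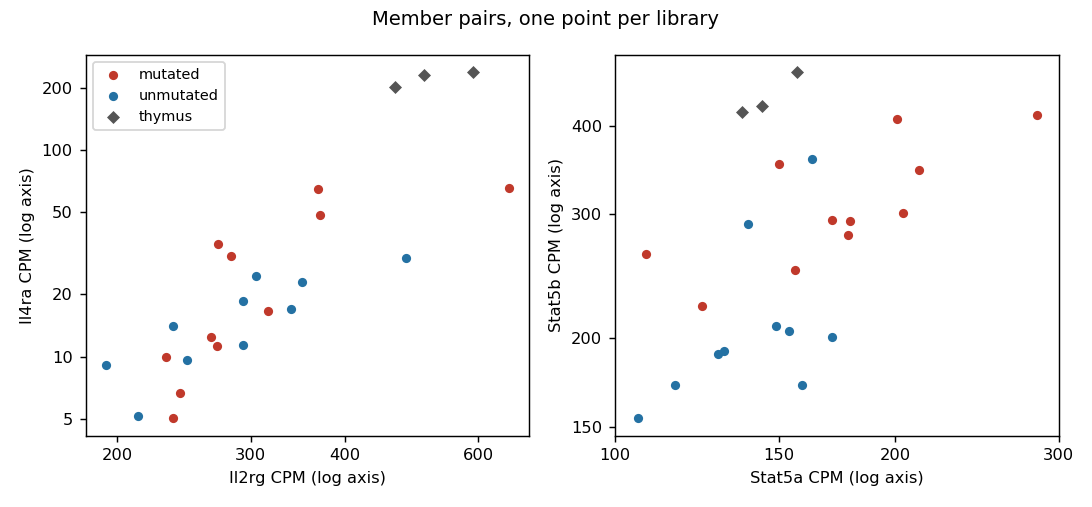
Il4ra against Il2rg and Stat5b against Stat5a, in CPM on log axes, with 1 point per library (red, mutated; blue, unmutated; grey diamonds, thymus). Over the 21 lymphomas r is 0.79 in the left panel and 0.7 in the right, and the thymus points lie above the lymphomas on the vertical axes.

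The genes most like 3 of the members were sought among 8872 genes by Spearman's rho over the 21 lymphomas, as a description. Il7r was closest to Ncf4 (rho 0.86), Zdhhc9 (0.83), Plekhg5 (0.82), Ero1l (0.8) and Rhobtb2 (0.8). Ncf4, which encodes a subunit of the phagocyte NADPH oxidase, was the nearest of all for Il7r. Socs1 was closest to Acot8 (0.77), 3110002H16Rik (0.74), Brap (0.73), Ddhd2 (0.73) and Sbno2 (0.71). Cish was closest to Nlrc5 (0.88), a regulator of MHC class I genes, and to Pla2g2d (0.86), Gimap3 (0.86), Sema4a (0.85) and Cd52 (0.84). The highest of so many coefficients are high by selection.

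The remaining genes of the pathway were read from lists. Of 8 ligand genes 4 were tested, and Tslp, made by epithelial cells, fell by 2.63 (SE 0.86, adjusted p 0.0233 in edgeR) from 0.824 ± 0.282 (SD, n = 3) to 0.124 ± 0.231 CPM (SD, n = 21). That call was lost without any 1 of the thymus libraries, with adjusted p up to 0.104, and without the lymphomas with a raised chromosome 15 (0.0712). Thymic epithelial markers fell with it, summing to 0.949 to 10.9 CPM in the lymphomas and 26 to 66.9 in thymus. Il7 had 24 counts over all lymphomas and 11 over all thymus libraries, too few to test. Il9 had no count in any of the 24 libraries, which allows up to 0.00608 CPM over the lymphomas and 0.0379 CPM over thymus by counting error.

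Of 7 other receptor chains 6 were tested, 1 rose and 1 fell, where 15.4% of all genes were higher and 15.4% lower. Il9r, the partner chain for interleukin-9, rose 13-fold, from 9.93 ± 1.51 (SD, n = 3) to 129 ± 35.4 CPM (SD, n = 21). It was at 9.29, 8.84 and 11.7 CPM in thymus and at 69.5 to 219 CPM in the lymphomas, so every lymphoma exceeded every thymus library. The log2 fold change was 3.7 (SE 0.31, adjusted p 1.3e-08 in edgeR), 3.66 in the mutated and 3.74 in the unmutated set. Il21r, described with Il4ra, was the chain that fell. Il2ra, the alpha chain for interleukin-2 and a marker of the double-negative stage, ran from 4.39 to 1520 CPM in the lymphomas and from 70.1 to 103 in thymus. With 13 lymphomas above thymus and 8 below, its log2 fold change of 2.19 (SE 1.47) had an adjusted p of 0.265 in edgeR. Crlf2, a chain of the Tslp receptor, passed in the unmutated set (-1.1, SE 0.33, adjusted p 0.0118 in edgeR; 0.0817 without thymus 2, 0.136 without the lymphomas with a raised chromosome 15) and between the sets.

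Of 7 other Janus kinases and STATs, Stat2, an interferon transducer, was the one called: it fell by 0.8 (SE 0.2, adjusted p 0.00506 in edgeR). Of 17 further inhibitors 3 rose and 2 fell, with a median of 0.15. Over all genes tested, 15.4% were higher and 15.4% lower, so the counts of this and the previous list stand near that background. Socs5 rose by 1.45 (SE 0.31, adjusted p 0.0012), from 17.6 ± 1.77 (SD, n = 3) to 48.2 ± 15.4 CPM (SD, n = 21). The phosphatase Ptpn11 rose by 0.46 (adjusted p 0.0165) and the adaptor Sh2b3 by 0.5 (adjusted p 0.0178). The Ptpn11 call was lost without thymus 2 (adjusted p 0.157), and that of Sh2b3 without thymus 2 or 3 (0.0946 and 0.0564). Neither passed with limma on log2(TPM + 1), where the adjusted p was 0.0681 for Ptpn11 and 0.0858 for Sh2b3. The SUMO ligases Pias4 and Pias1 fell by 0.75 (adjusted p 0.00166) and 0.43 (adjusted p 0.00292). Socs1 and Socs5 thus moved in opposite directions.

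Of 18 genes known as STAT5 targets, 17 were tested, 9 fell and 0 rose in edgeR (unadjusted, 10 lower and 1 higher; DESeq2, 9 lower and 1 higher), where 15.4% of all genes were lower and 15.4% higher. The list's median was -1.11 against 0.07 for all genes. Ccnd3, a D-type cyclin of thymocytes, fell by 2.09 (SE 0.27, adjusted p 7.19e-06), from 2110 ± 192 (SD, n = 3) to 495 ± 205 CPM (SD, n = 21). The survival gene Bcl2l1 fell by 2.58 (SE 0.39, adjusted p 4.09e-05), the kinase gene Pim2 by 1.22 (SE 0.19, adjusted p 5.21e-05) and the survival gene Mcl1 by 0.78 (SE 0.15, adjusted p 0.000649), all in edgeR. The counts were 8 lower in the mutated and 9 lower in the unmutated set, again with 0 higher in edgeR (DESeq2, 1 higher in each set; unadjusted, 1 and 0), where 12.9% and 17.3% of all genes were lower. Several of these calls were lost when 1 of the 3 thymus libraries was left out. For all lymphomas, Bcl2 was lost without any 1 of them (adjusted p up to 0.124), Dusp5 without thymus 1 or 3 (0.0985 and 0.0537) and Foxp3 without thymus 1 or 2 (0.057 and 0.0672). In the mutated set Ccnd2, Dusp5 and Pim1 were each lost without any 1 thymus library, with adjusted p up to 0.0781, 0.175 and 0.116. Dusp5 and Pim1 were lost there without some single lymphomas too, in 9 and 5 of the fits without 1 library in all. With no filter on low counts their adjusted p in edgeR was 0.0605 and 0.052. In the unmutated set Dusp5 was lost without thymus 1 (0.0745). Prf1, called there at an adjusted p of 0.0383 in edgeR, was lost in 7 of the fits without 1 library, with adjusted p up to 0.114. It was also lost with no filter on low counts (0.0506) and without the lymphomas with a raised chromosome 15 (0.138). These genes answer to other factors too, and double-positive markers were lower in the same lymphomas, as given above. Their part was not tested.

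**Figure D5:**
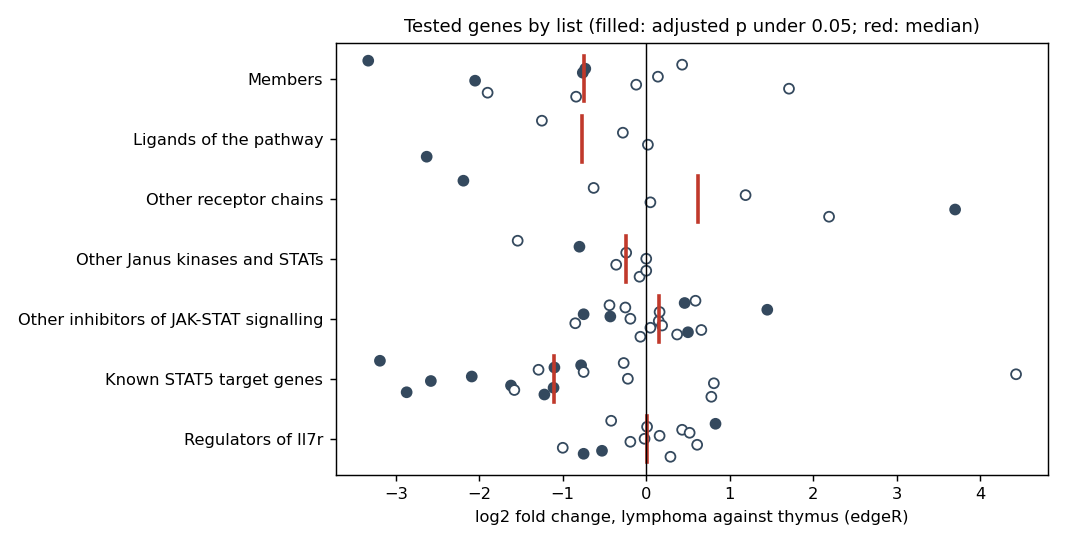
Log2 fold change of lymphoma against thymus (edgeR) for the tested genes of each list; each point is a gene, filled where the adjusted p is under 0.05, and the red line is the list's median. The STAT5 target list has its median at -1.11 with 9 filled points, all to the left, and Il9r is the filled point at 3.7 among the receptor chains.

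Of 13 regulators of Il7r, Nr3c1, the glucocorticoid receptor gene, rose by 0.83 (adjusted p 0.037). Foxp1 fell by 0.75 (adjusted p 0.0204) and Tcf7 by 0.53 (adjusted p 0.0494), in edgeR. Over all genes tested, 15.4% were higher and 15.4% lower. The Nr3c1 and Foxp1 calls were each lost without any 1 thymus library, with adjusted p up to 0.18 and 0.16, and that of Tcf7 in 20 of the 24 fits without 1 library. Nr3c1 did not pass with limma on log2(TPM + 1) (adjusted p 0.0701), and Tcf7 did not with RLE factors or with no filter on low counts (0.0537 and 0.0912). Between the sets, Ets1 (0.68, adjusted p 0.0151) and Runx1 (0.62, adjusted p 0.0151) of this list were higher in the mutated set. So were Crlf2 (0.81, adjusted p 0.0445), Ptpn6 (0.48, adjusted p 0.0236) and Socs5 (0.58, adjusted p 0.037). The Crlf2 call was lost in 17 of the fits without 1 library and the Socs5 call in 8, with adjusted p up to 0.077 and 0.0723. Without the 8 lymphomas with a raised chromosome 15 none of these 5 passed, with differences of 0.28, 0.27, 0.48, 0.37 and 0.22 in the same order.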

How the data were processed

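Gene counts were deposited by the authors as whole, unnormalized numbers for 24 libraries. The submitters' processing notes name HISAT2 2.0.1, cutadapt 1.9.1, SAMtools, HTSeq 0.6.1 and edgeR, with the build GRCm38.p6. The strand of counting was not given in the sources used here. In addition, the authors deposited TPM values of the same libraries. A deposited CPM table of lymphomas picked by Grb10 level was not used. The 10 members, the gene lists and the tests were chosen with earlier results of these data known.

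Counts were tested with edgeR 4.0.16 in R 4.3.3 (TMM, filterByExpr, glmQLFit, Benjamini-Hochberg over 13121 genes), in a model of 2 groups and 1 of 3 groups; SE is the log2 fold change over the root of F. Alternatives used DESeq2 1.42.0, RLE factors, other filters and limma 3.58.1 on log2 TPM. On simulated counts with 200 changed genes of 12976, 41% of 2-fold and 69% of 4-fold changes were found for lymphoma against thymus. In the data 4044 of 13121 genes were called. With so few changed genes the Benjamini-Hochberg cut is stricter, so these shares are not the detection rate in the data. Library pairs differed beyond sampling noise (chi-square per degree of freedom at least 9.54). Correlations used 100000 permutations. Named were the members in every comparison, up to 4 genes of each other list with the smallest p, and Il2ra. Also named were the 5 genes most alike for Il7r, Socs1 and Cish (mean of at least 10 CPM). The chromosome 7 neighbours, Sh2b3, the Socs1 motif and the marker lists set beside Cish were chosen after values were seen. Marker lists also covered early and mature thymocytes, natural killer cells, neutrophils and dendritic cells, whose summed CPM in lymphomas and thymus were 149 to 1880 and 163 to 202, 96.9 to 1320 and 976 to 1190, 92.2 to 2720 and 135 to 180, 0.262 to 67 and 55.8 to 101, and 2.12 to 55.9 and 18.9 to 27.2. Of the 10 natural killer markers 7 fell and 1 rose (median log2 fold change -3.06). Their sum was nevertheless higher in most lymphomas, with a median of 573 CPM against 150 CPM in thymus. Il2rb had no promoter entry. Gene positions came from GENCODE M21.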

Additional observations from a re-analysis of the deposited data

Results flagged for a closer look

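The effects against thymus of the mutated and the unmutated set differed for 6 genes, by edgeR's test of the difference itself: Stat5b by 0.54, Crlf2 by 0.81, Ets1 by 0.68, Ptpn6 by 0.48, Runx1 by 0.62 and Socs5 by 0.58 on the log2 scale, each higher in the mutated set. None of the 6 passed without the 8 lymphomas with a raised chromosome 15, where 10 mutated and 3 unmutated lymphomas remain. In the unmutated set, 1 lymphoma stood apart from the other 9 by Dixon's criterion for 5 of 37 genes checked, and chance alone gives about 1 in 20 groups. These were lymphoma 31 for Bcl2l1 (149 CPM) and Pias1 (107 CPM), lymphoma 35 for Foxp3 (5.67 CPM), lymphoma 32 for Pim1 (52.5 CPM) and lymphoma 20 for Tcf7 (1400 CPM). No member met the criterion. The mutated set, with 11 libraries, and thymus, with 3, were not checked in this way.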

How the results depend on the processing

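No paired analysis was possible because the replicate numbers only name libraries and the groups compared share fewer than 2 of them. Leaving out 1 library at a time, the genes called ranged from 1929 to 4435 for all lymphomas against thymus, 1441 to 3904 for the mutated set, 2856 to 4895 for the unmutated set and 301 to 1221 between the sets. The members called ranged from 2 to 5, 2 to 4, 3 to 5 and 0 to 1. The low gene counts against thymus came when a thymus library was left out. The low of 2 members in the mutated set came without any 1 thymus library and also without lymphoma 2, 4, 10, 13, 14, 15 or 16, where Il2rg was lost. Between the sets DESeq2 called 1275 genes against 706. Without the lymphomas with a raised chromosome 15 (chosen after seeing the data) 2757 genes passed in the unmutated set and 1 between the sets, where 0 members passed. In that fit Jak3 (-0.15) and Il2ra (-0.11) of the unmutated set against thymus turned sign, as did Socs1 (-0.18), Cish (0.1) and Il9r (0.11) between the sets. On both TPM scales Jak1 of the mutated set turned to -0.02, and Cish between the sets turned to 0.02 and 0.18 with a pseudocount of 1 and 0.1. The share of calls that were higher on log2(TPM + 0.1) was 38.1, 42, 34.3 and 76.9% for the 4 comparisons. Leaving out 1 library turned the sign of further small estimates: Jak1 of the mutated set (-0.06 to 0.16) and Stat5a of the unmutated set (-0.07 to 0.04) and, between the sets, Il7r (-0.1 to 0.61), Il2rg (-0.04 to 0.22), Socs1 (-0.17 to 0.3), Cish (-0.61 to 0.15) and Il2ra (-0.13 to 1). None of these sign changes concerns a gene that passed in edgeR with all libraries in that comparison, and the cause of each change was not tested. Il4ra and Socs1 kept their direction and their call against thymus in every alternative run. Over all lymphomas, Stat5b, at -0.73, lost its call without any 1 of the 3 thymus libraries. Mcl1, at -0.78, kept its call in each of the 24 fits without 1 library, so changes of similar size were not equally stable.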
